A study of Saccharomyces cerevisiae with 24 samples.

Results

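The genes described here are 7 genes of iron economy in Saccharomyces cerevisiae, out of 6692 open reading frames counted: LSO1, TIS11, CTH1, HMX1, CCC1, MRS3 and MRS4. They were chosen by name and role, as genes for sparing, storing or moving iron inside the cell. The choice was made with earlier fold changes of these same libraries known, so the adjusted p-values below rank these genes among all genes and are not independent evidence for the group. Polyadenylated RNA was sequenced from 3 strains in 2 media, with 4 replicate libraries for each of the 6 combinations. The strains were H3L126M, in which leucine 126 of histone H3 is replaced by methionine, H3L126H, in which it is replaced by histidine, and the wild type (WT). Leucine 126 lies near the proposed copper site at the interface of the 2 copies of H3 in a nucleosome, and the study asked how these substitutions affect cellular copper chemistry. Each substitution was made in both chromosomal H3 genes, HHT1 and HHT2, and each mutant is 1 line. Mutants and WT all descend from the same haploid MATa laboratory strain and all lack functional HIS3, LEU2, MET17 (also named MET15) and URA3. YPEG is an oxidative medium in which ethanol and glycerol are respired, and YPD is a fermentative medium with glucose.

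Baker's yeast responds to low iron mainly through the transcription factors Aft1 and Aft2, which raise the iron regulon: uptake systems at the cell surface and proteins that spare iron inside the cell. Among the sparing genes, TIS11 (also called CTH2) and CTH1 encode zinc-finger proteins that bind AU-rich mRNAs of iron-using proteins and speed their decay, and HMX1 encodes a heme oxygenase that releases iron from heme. LSO1 encodes a small protein similar to Lso2 whose transcription is known to increase when iron is short. CCC1 encodes the vacuolar importer that stores iron and is a target of the high-iron factor Yap5, and MRS3 and MRS4 encode carriers that bring iron into mitochondria.

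The 24 libraries held between 8570789 and 15577958 counts. URA3 and MET17 had 0 counts in every library and LEU2 had at most 1, as the shared deletions require. ADH2, a glucose-repressed alcohol dehydrogenase, stood at 1787 to 2612 CPM (counts scaled to the same library total) in the WT YPEG libraries, against 21.8 to 25.6 CPM in the WT YPD libraries. The other medium check genes, PCK1, ICL1 and FBP1, were also higher in YPEG in every strain. In YPEG, PCK1 stood at 7267 to 8530 CPM in H3L126M, 1335 to 1828 in H3L126H and 2160 to 2491 in WT. ICL1 stood at 3592 to 4725, 1238 to 1584 and 1631 to 2083 CPM in the same order. FBP1 stood at 2020 to 2590, 496 to 624 and 969 to 1234 CPM. Whether these strain differences bear on the iron genes was not tested. The 4 libraries of a group were not evenly spaced: in WT, libraries 1 and 2 resembled each other, as did libraries 3 and 4 (chi-square per gene of 3.90 and 9.73 in YPD and 10.7 and 21.0 in YPEG), far more than libraries of different pairs did (49.6 to 81.2 in YPD and 50.2 to 72.3 in YPEG). H3L126M libraries 3 and 4 in YPEG were also close (7.56), whereas the H3L126H libraries in YPD were all alike (3.83 to 5.95). What the paired libraries share is not stated, and values with libraries 1 and 2 summed and 3 and 4 summed, 2 samples a group, are given where they end a call. In H3L126H, the genes of chromosomes II, III, V and XVI were higher as a whole (median log2 fold change against WT in YPD of 0.42, 0.21, 0.23 and 0.41). The 7 genes lie on chromosomes IV, X, XI and XII, where the same medians were -0.16, 0.05, -0.09 and -0.01. CPM below are on edgeR's trimmed-mean (TMM) scale over the 24 libraries, fold changes are on the log2 scale with their standard error (SE), and a gene is called at an adjusted p below 0.05 in edgeR's quasi-likelihood test with Benjamini-Hochberg adjustment over all genes tested. Such shares of a bulk RNA pool cannot tell a gene used by fewer cells from less of its RNA in every cell. Statements that groups do not overlap describe the libraries of the named gene only. The share of all genes without overlap was not computed.

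All 7 genes are single open reading frames without introns, none overlaps another annotated gene, and every 50-base window of each was unique in the R64 genome (sacCer3). LSO1 (YJR005C-A) lies on the minus strand at chrX:448477-448758, TIS11 (YLR136C) on the minus strand at chrXII:415801-416658, CTH1 (YDR151C) on the minus strand at chrIV:764178-765155 and HMX1 (YLR205C) on the minus strand at chrXII:552724-553677. CCC1 (YLR220W) lies on the plus strand at chrXII:576825-577793, MRS3 (YJL133W) on the plus strand at chrX:160619-161563 and MRS4 (YKR052C) on the minus strand at chrXI:532550-533464.

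The core binding motif of Aft1 and Aft2, TGCACCC, was searched on both strands in the 500 bases before each start codon. It was found in LSO1, TIS11 and HMX1 and in none of the other 4 genes, whereas 2.33% of 6000 open reading frames with such a window held it. TIS11 held 2 matches, which 0.2% of the open reading frames had. The windows below show each match with 10 bases on either side, read 5′ to 3′ along the strand of the gene, with the motif in capitals. They are shown because these are also the 3 genes with the highest YPEG over YPD ratios in the WT. GGGTGCA is the same motif on the opposite strand.
LSO1, chrX:448887-448913, minus strand: tcgagaatgtTGCACCCttttttccaa
TIS11, nearer match, chrXII:416815-416841, minus strand: acatgcagttGGGTGCAttgtgccagc
TIS11, farther match, chrXII:416891-416917, minus strand: cgccgcaaaaTGCACCCacattaaaga
HMX1, chrXII:554112-554138, minus strand: taacaggtgcGGGTGCAagtttactag

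The matches began 145 bases before the start codon in LSO1, 173 and 249 bases before it in TIS11, and 451 bases before it in HMX1. The motif searched for Yap5, TTACTAA, occurred in the same window of CCC1 with 2 matches and of CTH1 and MRS4 with 1 each, against 11.8% of all open reading frames with at least 1 and 0.95% with at least 2. MRS3 held neither motif. The CCC1 windows are shown because CCC1 is the known Yap5 target of the group, with the motif in capitals.
CCC1, nearer match, chrXII:576512-576538, plus strand: ctcactaataTTACTAAcataccctct
CCC1, farther match, chrXII:576417-576443, plus strand: tgaacttcaaTTACTAAtgtaacttaa

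A match of this kind describes the sequence only. In the other iron gene lists, TGCACCC occurred upstream of 7 of 7 siderophore genes, 9 of 10 reductive uptake genes, 3 of 7 vacuolar metal transport genes and 0 of 15 genes of iron-using proteins.

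In the WT, the oxidative medium separated the 7 genes. LSO1, TIS11 and HMX1 were 15 to 26 times as high in YPEG as in YPD, MRS4 was moderately higher, and CTH1 and MRS3 were lower. For TIS11, the mRNA-decay factor, the WT YPEG libraries held 387, 357, 332 and 259 CPM, against 14.7, 14.2, 14.2 and 7.39 CPM in the WT YPD libraries. For HMX1, the heme oxygenase, the WT YPEG libraries held 123, 112, 115 and 82.8 CPM, against 6.01, 8.59, 8.32 and 5.82 CPM in the WT YPD libraries. The 2 media did not overlap for either gene. For LSO1, counts were few: 49, 61, 131 and 136 reads in the WT YPEG libraries (5.15, 6.84, 10.5 and 12.6 CPM) and 5, 0, 3 and 6 reads in the WT YPD libraries (0.485, 0, 0.287 and 0.554 CPM). The library with 0 LSO1 reads allows up to 0.303 CPM, the level of 3 counts, and the media again did not overlap.

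The log2 fold change of YPEG over YPD in the WT was 4.73 (SE 0.25, adjusted p = 2.16e-13) for TIS11, 4.67 (SE 0.58, adjusted p = 1.45e-07) for LSO1 and 3.91 (SE 0.23, adjusted p = 7.71e-13) for HMX1 in edgeR's quasi-likelihood test. Ordered by fold change, they stood 29th, 32nd and 53rd of 6082 genes. In the WT, LSO1 reached the count filter's minimum of 10 only in YPEG, where it is high. Its adjusted p and its place are therefore descriptions. The mitochondrial carrier genes moved apart: MRS4 rose (log2 fold change 0.60, SE 0.13, adjusted p = 0.000334 in edgeR) and MRS3 fell (-0.31, SE 0.06, adjusted p = 0.000111). CTH1 fell (-0.58, SE 0.11, adjusted p = 3.71e-05 in edgeR), opposite in direction to its relative TIS11. Its WT libraries of the 2 media overlapped, at 60.9 to 99.2 CPM in YPD and 51.2 to 62.6 CPM in YPEG. CCC1 was not called, at 104 ± 8.40 CPM in YPEG and 95.2 ± 7.81 CPM in YPD (SD, n = 4 each; 0.13, adjusted p = 0.269 in edgeR). Hence 6 of the 7 genes were called, 4 higher and 2 lower, in a comparison that called 67.3% of all genes tested, 34.2% higher and 33.1% lower.

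Per kilobase of open reading frame, the order of levels differed between media. In the WT in YPEG, TIS11 stood highest at 389 CPM per kb, followed by HMX1 at 114 and CCC1 at 107, then MRS4 at 62.3, CTH1 at 56.8, MRS3 at 52.9 and LSO1 at 31.1. In the WT in YPD, CCC1 and CTH1 led at 98.2 and 84.8 CPM per kb, MRS3 stood at 65.8 and MRS4 at 41.2, and TIS11, HMX1 and LSO1 were lowest at 14.7, 7.53 and 1.18. Between HMX1 and CCC1 in YPEG, between MRS4 and CTH1 and between CTH1 and MRS3 in YPEG, and between CCC1 and CTH1 in YPD, the gap was smaller than the larger of the SDs.

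**Figure D1:**
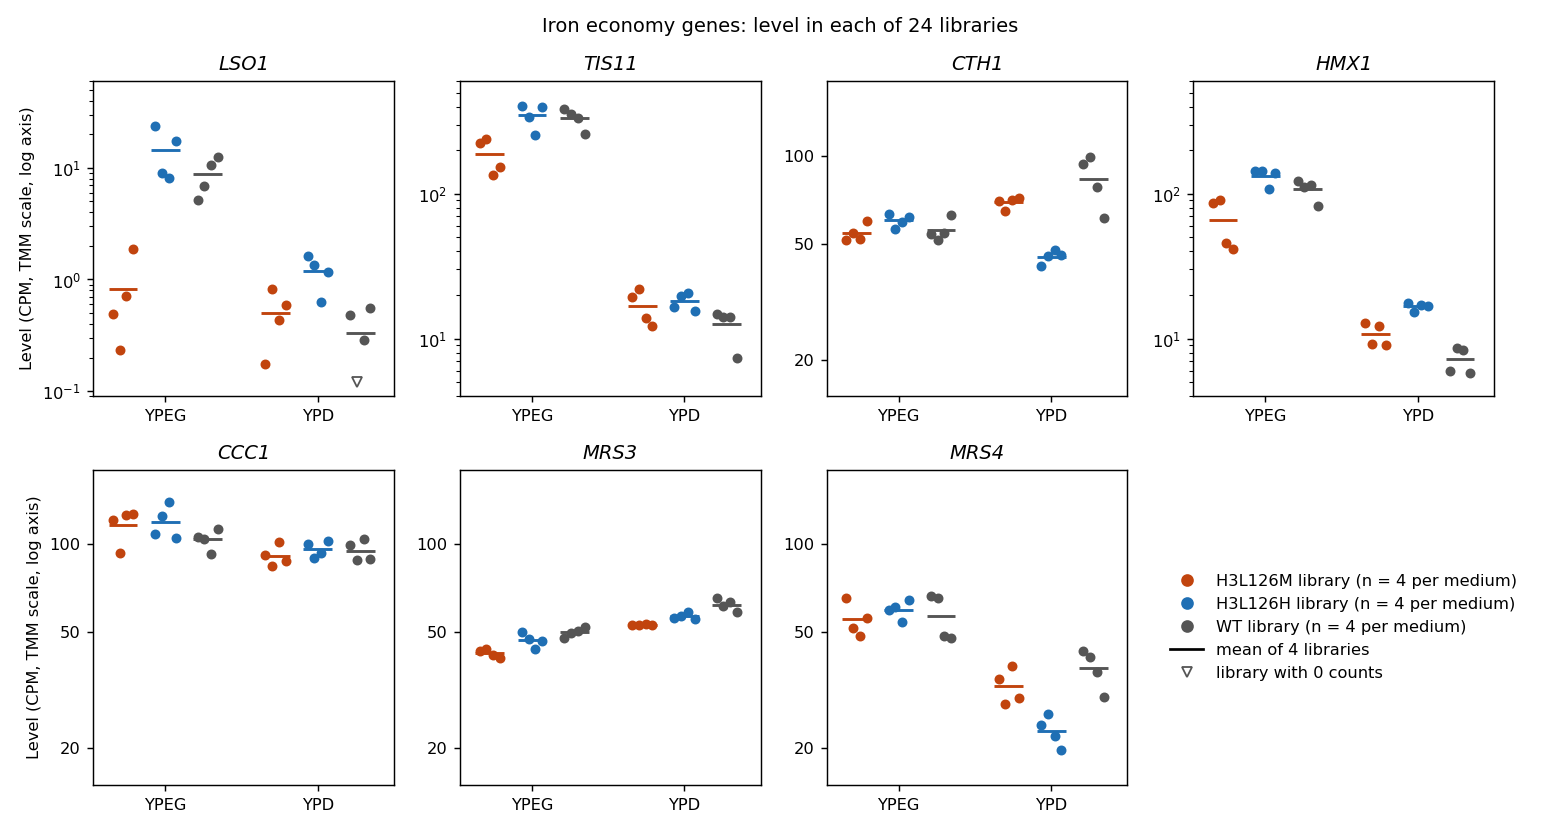
Level of each gene in each of the 24 libraries, in CPM on a log axis, with H3L126M, H3L126H and WT side by side in YPEG and in YPD. Points are libraries, bars are means of 4 libraries and the open triangle is the WT YPD library with 0 LSO1 counts; LSO1, TIS11 and HMX1 are higher in YPEG than in YPD in the WT, and in YPEG the H3L126M libraries are lower than WT for LSO1 and TIS11.

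The ratio of mean CPM in YPEG to mean CPM in YPD for LSO1 was 1.64 in H3L126M, 12.2 in H3L126H and 26.5 in WT. For TIS11 the ratios were 11.1 in H3L126M, 19.2 in H3L126H and 26.5 in WT, and for HMX1 they were 6.07, 7.99 and 15.1 in the same strains. In H3L126M, the LSO1 libraries of the 2 media overlapped, at 0.233 to 1.89 CPM in YPEG and 0.173 to 0.828 CPM in YPD.

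The interaction term, which is the H3L126M minus WT difference in YPEG less that in YPD, tests the change of response itself. It was -3.90 (SE 1.03, adjusted p = 0.00922) for LSO1, -1.25 (SE 0.32, adjusted p = 0.00824) for TIS11 and -1.32 (SE 0.32, adjusted p = 0.00480) for HMX1 in edgeR's quasi-likelihood test. CTH1, CCC1, MRS3 and MRS4 were not called, at 0.23, 0.22, -0.01 and 0.16. These 3 of 7 genes stand beside 24.4% of all 6082 genes called. The LSO1 term rests on YPD counts of 2 to 8 in H3L126M and 0 to 6 in WT. All are under the count filter's minimum of 10, so the adjusted p of this term is a description. With libraries summed in pairs, the terms were of the same size but not called (adjusted p = 0.0696 for LSO1, 0.111 for TIS11 and 0.102 for HMX1 in edgeR).

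For H3L126H, the interaction called another trio. CTH1 (0.99, SE 0.15, adjusted p = 0.000149) and MRS4 (0.78, SE 0.19, adjusted p = 0.00673) had positive terms and HMX1 a negative one (-0.92, SE 0.31, adjusted p = 0.0409 in edgeR's quasi-likelihood test). LSO1 (-1.09, SE 0.85, adjusted p = 0.385) and TIS11 (-0.46, SE 0.32, adjusted p = 0.328) were not called. The background was 19.0% of all genes. The HMX1 call was lost without any 1 of 11 of the 16 libraries (adjusted p up to 0.0765 in edgeR). None of the 3 was called with libraries summed in pairs (adjusted p = 0.0584 for CTH1, 0.148 for MRS4 and 0.225 for HMX1 in edgeR).

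**Figure D2:**
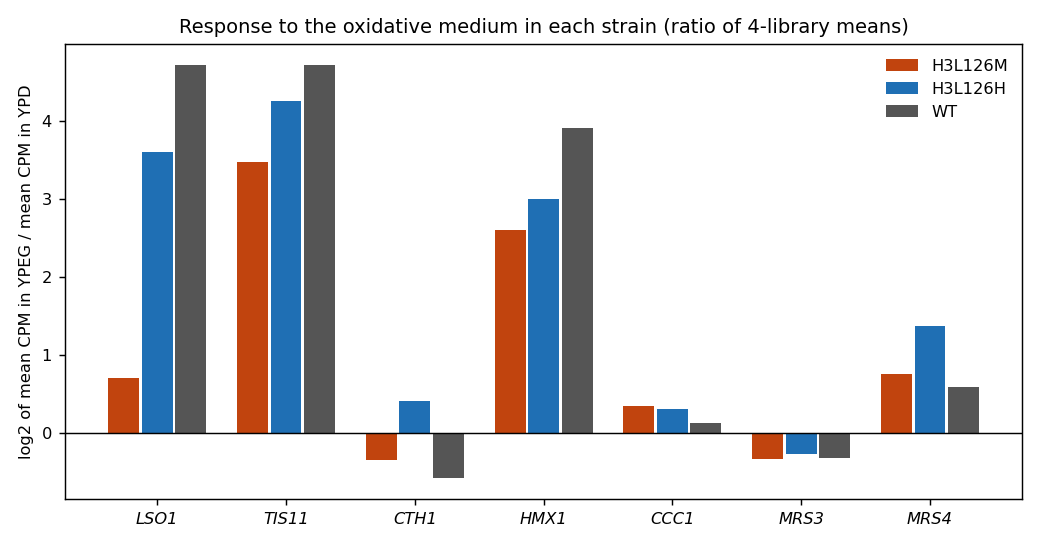
Bars give log2 of the ratio of mean CPM in YPEG to mean CPM in YPD for each gene in H3L126M, H3L126H and WT, each mean over 4 libraries and drawn without an error. LSO1, TIS11 and HMX1 have the tallest bars in WT, and the LSO1 ratio in H3L126M, 1.64, is far below the 26.5 of WT.

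In the oxidative medium, LSO1, TIS11, HMX1 and MRS3 were lower in H3L126M than in WT. LSO1 had 5, 3, 8 and 25 reads in the H3L126M libraries, 336, 110, 142 and 253 in the H3L126H libraries and 49, 61, 131 and 136 in the WT libraries. On the CPM scale these were 0.488, 0.233, 0.708 and 1.89 in H3L126M, 23.7, 8.91, 8.07 and 17.3 in H3L126H, and 5.15, 6.84, 10.5 and 12.6 in WT. Every H3L126M library was below every WT and H3L126H library, while the H3L126H and WT libraries overlapped. The log2 fold change of H3L126M over WT was -3.35 (SE 0.53, adjusted p = 0.000323 in edgeR's quasi-likelihood test), and the ratio of means was 0.0945. LSO1 passed the count filter in YPEG only through the WT and H3L126H libraries, where it is high. Its adjusted p and its place as the lowest of the 6022 fold changes are therefore descriptions.

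TIS11 stood at 223, 239, 135 and 153 CPM in the H3L126M YPEG libraries, 405, 337, 254 and 395 CPM in H3L126H, and 387, 357, 332 and 259 CPM in WT. Again every H3L126M library was below every WT library, by a smaller margin (log2 fold change -0.82, SE 0.19, adjusted p = 0.00389 in edgeR). HMX1 stood at 85.8, 89.9, 45.6 and 41.3 CPM in H3L126M, 144, 143, 109 and 138 CPM in H3L126H, and 123, 112, 115 and 82.8 CPM in WT. Here H3L126M replicates 1 and 2 overlapped the lowest WT library, and the log2 fold change was -0.71 (SE 0.22, adjusted p = 0.0200 in edgeR). H3L126M replicates 3 and 4 were the lower pair for both genes.

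MRS3, the mitochondrial carrier, was lower by a small and even amount, at 40.7 to 43.7 CPM in H3L126M and 47.8 to 52.1 CPM in WT, with no overlap (log2 fold change -0.23, SE 0.08, adjusted p = 0.0285 in edgeR). The storage gene CCC1 (0.18, adjusted p = 0.245), the second carrier gene MRS4 (-0.03, adjusted p = 0.879) and CTH1 (-0.02, adjusted p = 0.883) were not called by edgeR. In all, 4 of the 7 genes were called and all 4 were lower, against 36.2% of all genes tested, 17.2% higher and 19.0% lower. LSO1 and TIS11 were called under every alternative. For LSO1, counted among the 4, this is a description, because it entered through its WT and H3L126H reads. The HMX1 call was lost without WT replicate 3 (adjusted p = 0.0564 in edgeR), H3L126M replicate 3 (0.0637) or H3L126M replicate 4 (0.0511). MRS3 lost its call without any 1 of 5 of the 8 libraries (WT replicate 3 or 4, or H3L126M replicate 1, 3 or 4; edgeR adjusted p up to 0.0728). With libraries summed in pairs, LSO1 (adjusted p = 0.00580) and TIS11 (0.0362) were called by edgeR and HMX1 (0.106) and MRS3 (0.208) were not.

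H3L126H in the same medium was called in none of the 7 genes by edgeR, in a comparison that called 36.5% of all genes and 2812 of 6022 at an unadjusted p below 0.05. The log2 fold changes over WT, which uses the same 4 WT libraries, were 0.71 (SE 0.39, adjusted p = 0.167) for LSO1, 0.06 (SE 0.19, adjusted p = 0.828) for TIS11 and 0.30 (SE 0.21, adjusted p = 0.286) for HMX1. MRS3, CTH1, CCC1 and MRS4 stood at -0.09, 0.11, 0.20 and 0.07. DESeq2 likewise called 0 of the 7. Over all settings, DESeq2 among them, this comparison called 702 to 2407 genes. With these SEs, a difference of moderate size in LSO1 or HMX1 could have been missed.

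Set against each other in YPEG, the 2 mutants differed in LSO1, TIS11 and HMX1. H3L126M over H3L126H gave -4.06 (SE 0.51, adjusted p = 3.07e-05) for LSO1, which entered through its WT and H3L126H reads, -1.01 (SE 0.22, adjusted p = 0.00203) for HMX1 and -0.88 (SE 0.19, adjusted p = 0.00201) for TIS11 in edgeR's quasi-likelihood test. In each of the 3, no H3L126M library reached the lowest H3L126H library. The carriers, CTH1 and CCC1 were not called, at -0.14 for MRS3, -0.10 for MRS4, -0.13 for CTH1 and -0.02 for CCC1. The comparison called 40.7% of all genes, 19.4% higher and 21.3% lower.

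**Figure D3:**
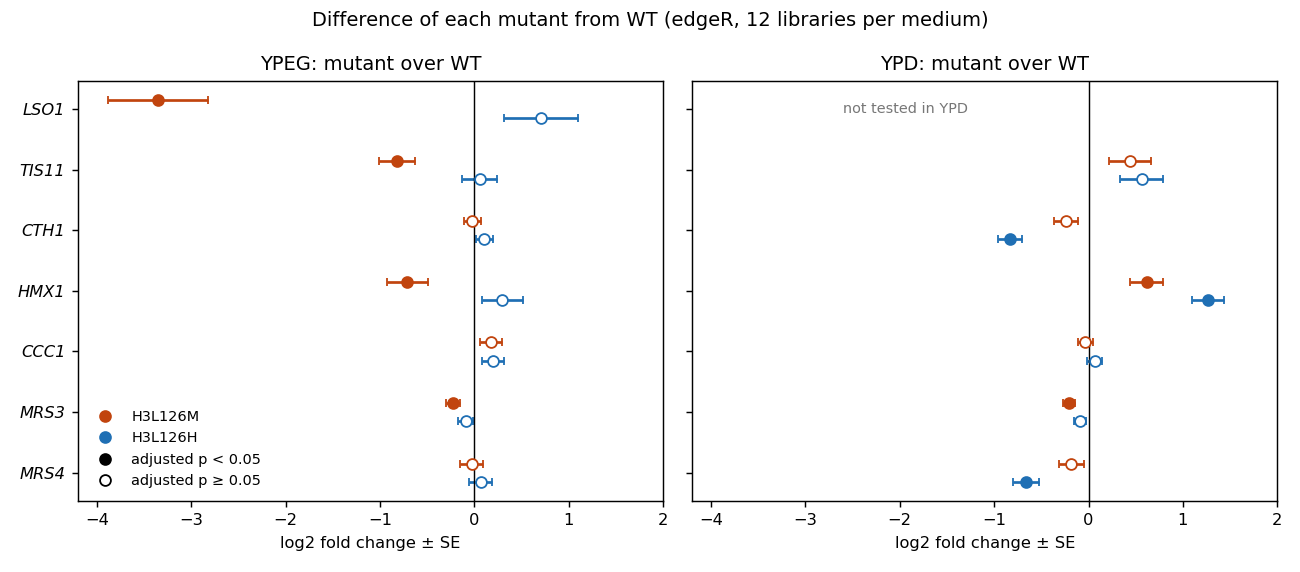
Log2 fold change of H3L126M and of H3L126H over WT for each gene, in YPEG and in YPD, with bars of 1 SE; filled points have an adjusted p below 0.05 in edgeR. In YPEG the filled points are those of H3L126M for LSO1 (-3.35), TIS11 (-0.82), HMX1 (-0.71) and MRS3 (-0.23), and in YPD HMX1 is higher in both mutants.

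In the fermentative medium HMX1 was higher in both mutants than in WT, so that H3L126M differed from WT in opposite directions in the 2 media. Its YPD libraries held 12.9, 9.21, 12.1 and 9.03 CPM in H3L126M, 17.6, 15.3, 17.2 and 16.7 CPM in H3L126H, and 6.01, 8.59, 8.32 and 5.82 CPM in WT. The 3 strains did not overlap, with H3L126H highest and WT lowest. H3L126H over WT was 1.26 (SE 0.17, adjusted p = 5.58e-05) and H3L126M over WT 0.62 (SE 0.17, adjusted p = 0.0269) in edgeR's quasi-likelihood test, both against the same WT libraries. The opposite directions in H3L126M rest on 2 calls that were not stable. With libraries summed in pairs neither was called (adjusted p = 0.0996 in YPD and 0.106 in YPEG in edgeR). In YPEG the H3L126M and WT libraries overlapped for HMX1.

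CTH1 and MRS4 were lower in H3L126H in YPD. CTH1 stood at 41.9, 45.3, 47.5 and 45.7 CPM in H3L126H, against 93.9, 99.2, 77.8 and 60.9 CPM in WT, without overlap (-0.83, SE 0.13, adjusted p = 0.000147 in edgeR). MRS4 stood at 23.99, 26.2, 22.1 and 19.8 CPM in H3L126H, against 43.2, 41.0, 36.4 and 30.1 CPM in WT, also without overlap (-0.67, SE 0.14, adjusted p = 0.00152 in edgeR). With the median of its chromosome removed, the difference was -0.67 for CTH1 and -0.57 for MRS4. CCC1 (0.07, adjusted p = 0.511), MRS3 (-0.09, adjusted p = 0.280) and TIS11 were not called by edgeR. The TIS11 libraries did not overlap, at 15.4 to 20.6 CPM in H3L126H and 7.39 to 14.7 CPM in WT (0.57, SE 0.23, adjusted p = 0.0566 in edgeR, and 0.0416 in DESeq2). Hence 3 of 6 genes tested were called, 1 higher and 2 lower, beside 44.2% of all genes, 24.4% higher and 19.8% lower.

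LSO1 did not pass the count filter in YPD, where H3L126M had 2, 8, 5 and 7 reads, H3L126H 17, 12, 6 and 10 reads, and WT 5, 0, 3 and 6 reads. Every H3L126H library was above every WT library in CPM (0.631 to 1.63 against 0 to 0.554). With no filter the LSO1 log2 fold change of H3L126H over WT was 1.84 (SE 0.58, adjusted p = 0.0194 in edgeR), and in the fit of all 24 libraries it was 1.80 (SE 0.76, adjusted p = 0.0598).

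H3L126M in YPD differed from WT in 2 of 6 genes tested, HMX1 (above) and MRS3, beside 14.3% of all genes. MRS3 was 52.8 to 53.3 CPM in H3L126M and 58.5 to 65.3 CPM in WT (-0.21, SE 0.06, adjusted p = 0.0453 in edgeR). TIS11 (0.44, adjusted p = 0.220), CTH1 (-0.24, adjusted p = 0.221), MRS4 (-0.18, adjusted p = 0.410) and CCC1 (-0.04, adjusted p = 0.817) were not called. Neither call was stable, and both were lost with libraries summed in pairs (adjusted p = 0.0996 for HMX1 and 0.366 for MRS3 in edgeR). HMX1 lost it without WT replicate 1 or 4 or H3L126M replicate 1 or 3 (adjusted p up to 0.0910), and MRS3 without any 1 library other than WT replicate 4 (up to 0.114). Without WT replicate 4, CTH1 was called instead (-0.37, adjusted p = 0.0110).

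Between the mutants in YPD, H3L126M over H3L126H was 0.59 (SE 0.13, adjusted p = 0.00238) for CTH1, 0.48 (SE 0.14, adjusted p = 0.0148) for MRS4 and -0.65 (SE 0.16, adjusted p = 0.00715) for HMX1 in edgeR's quasi-likelihood test, without overlap in any of the 3. TIS11, CCC1 and MRS3 were not called (-0.13, -0.10 and -0.12). These 3 of 6 stand beside 35.3% of all genes. The MRS4 call was lost without H3L126H replicate 4 (adjusted p = 0.0501), and with libraries summed in pairs CTH1 (0.0750) and MRS4 (0.107) were not called by edgeR.

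The other iron genes, from lists drawn up by function with earlier results of these libraries known, moved as follows in YPEG, to be read beside the 36.2% of all genes called (17.2% higher and 19.0% lower). In H3L126M against WT, 7 of 7 genes of siderophore uptake and retention were called lower and 0 higher, with a median log2 fold change of -0.88 beside a median near 0 for all genes, and ARN2, a siderophore transporter, was the lowest at -1.06. Of 10 genes on the reductive uptake list, 7 were lower and 1 higher (median -0.71). The 7 include FET4, a low-affinity transporter gene placed on this list, at -0.59. CCC2, the copper pump that loads the iron oxidase Fet3, was lowest at -1.40, and FRE4, a reductase gene, was higher at 0.88. Of 7 vacuolar metal transport genes, 5 were lower and 0 higher (median -0.41), with VHT1, a biotin transporter of the plasma membrane placed on this list, at -1.27. Of 7 regulator genes, 3 were lower: YAP5 at -0.81, AFT2 at -0.52 and AFT1 at -0.45.

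The list of 15 iron-using proteins, whose mRNAs include known targets of Cth1 and Tis11, went the other way in H3L126M in YPEG. Here 11 were higher and 1 lower (median log2 fold change 0.42), among them SDH2 (0.59), SDH1 (0.52) and SDH4 (0.47), subunits of succinate dehydrogenase, CYT1 (0.54), cytochrome c1, and HEM15 (0.80), ferrochelatase. RLI1, which encodes an iron-sulfur protein of ribosome recycling, was lower at -0.39. ACO1, aconitase, was not called (0.42, adjusted p = 0.0595 in edgeR). The 11 became 7 without WT replicate 3 or H3L126M replicate 1, 3 or 4, and when only the 8 libraries compared were fitted. They became 5 at an adjusted p below 0.01 in edgeR and 2 with libraries summed in pairs. The 7 reductive uptake genes were 7 under every alternative. The 7 siderophore genes were 5 at an adjusted p below 0.01 in edgeR, 6 with libraries summed in pairs and 7 otherwise. Of 16 genes of mitochondrial iron use and iron-sulfur assembly, 2 were higher, with NFU1 at 0.36, and 3 lower, with the scaffold gene ISU2 at -1.52. Of 10 genes on the heme synthesis list, 1 was higher (HEM15) and 2 lower. The 2 lower were regulator genes placed on this list and not genes of heme synthesis enzymes. They were ROX1, which encodes a repressor of hypoxic genes, at -0.72, and HAP1 at -0.43.

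For H3L126H against WT in YPEG, which uses the same WT libraries, the share of all genes called was 36.5%. Of 7 siderophore genes 1 was higher, the cell-wall mannoprotein gene FIT1 (0.997), and 0 were lower. Of 10 reductive uptake genes 2 were higher (FRE4 at 0.79) and 1 lower (FRE5 at -0.43), and of 7 vacuolar genes 1 was higher (FTH1 at 0.69, on chromosome II) and 2 lower (COT1 at -0.37). Of 15 iron-using protein genes 0 were higher and 4 lower (LEU1 at -0.58). Of 16 mitochondrial genes 5 were higher (ISU1 at 0.86) and 2 lower (YFH1 at -0.40). All 5 lie on chromosomes III and XVI, which are higher as a whole in H3L126H, and the part of this in the list counts was not tested. Of 10 heme genes 3 were lower (HEM3 at -1.02), and 0 of 7 regulators were called. Set directly against H3L126H in YPEG, H3L126M had 12 of 15 iron-using protein genes higher and 0 lower (median 0.71), and 6 of 7 siderophore genes lower and 0 higher (median -0.88). These counts stand beside 40.7% of all genes called in that comparison, 19.4% higher and 21.3% lower.

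**Figure D4:**
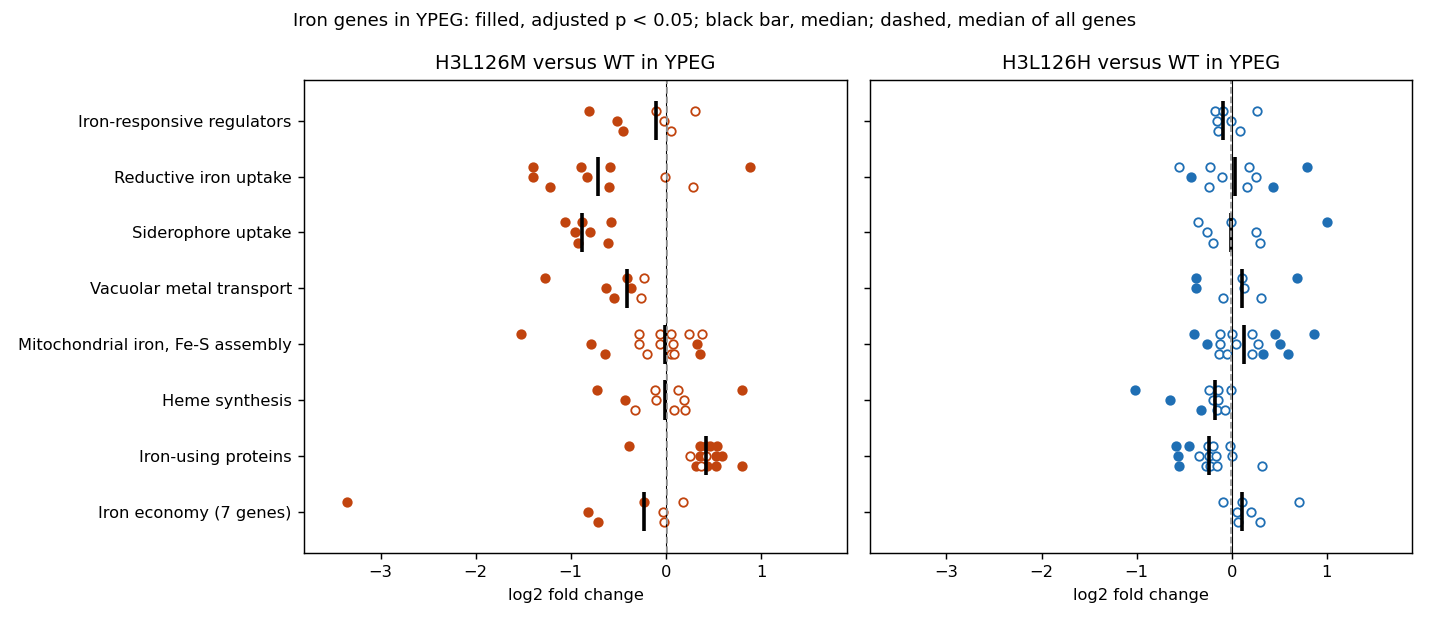
Log2 fold change of each gene of 7 iron lists and of the 7 iron economy genes in YPEG, H3L126M over WT on the left and H3L126H over WT on the right. Each point is a gene, filled where the adjusted p is below 0.05 in edgeR, the black bar is the median of the list and the dashed line the median of all genes; on the left the siderophore list lies wholly below 0 (median -0.88) and the iron-using list has a median of 0.42.

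In YPD, where H3L126H against WT called 44.2% of all genes (24.4% higher and 19.8% lower), it had 6 of 7 siderophore genes higher and 0 lower (median log2 fold change 0.72), with SIT1, a siderophore transporter gene on chromosome V, at 2.05. The 6 siderophore genes became 3 with libraries summed in pairs. Of 10 reductive uptake genes 4 were higher, with the permease gene FTR1, also on chromosome V, at 1.40, and 1 lower, the low-affinity transporter gene FET4 at -1.24. Of 7 vacuolar genes 3 were higher (VHT1 at 0.64) and 1 lower (ZRC1 at -0.30), and of 7 regulators 2 were higher (AFT2, on chromosome XVI, at 0.32) and 1 lower (YAP5 at -0.58). Of 15 iron-using protein genes 3 were higher (ACO1 at 1.36) and 5 lower (LEU1 at -0.85). Of 16 mitochondrial genes 4 were higher (ISU1 at 0.85) and 1 lower (YFH1 at -0.20), and all 4 lie on chromosomes II, III and XVI, whose genes are higher as a whole; the counts were not adjusted for this. Of 10 genes on the heme list 1 was higher, the regulator gene ROX1 on chromosome XVI, at 1.26. The 7 lower included the regulator gene HAP1 (-0.18), and HEM13 was lowest at -1.37.

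H3L126M against WT in YPD called 10 of the 72 list entries (13.9%), close to the 14.3% of all genes. ARN1 (0.47) was the 1 siderophore gene higher, CCC2 (0.41) was higher and FET4 (-0.56) lower among reductive uptake genes, and COT1 (0.40) was the 1 vacuolar gene higher. Of the 15 iron-using protein genes 1 was higher (CYC1 at 0.52) and 2 lower (LEU1 at -0.84), 2 mitochondrial genes were lower (ISU2 at -0.70), 1 heme gene was lower (HEM13 at -0.60), and 0 of 7 regulators were called. In the WT, YPEG over YPD called 67.3% of all genes, 34.2% higher and 33.1% lower. It gave 7 of 7 siderophore genes higher (median 4.58) and 9 of 15 iron-using protein genes higher, with 5 lower (median 2.83).

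Across the 24 libraries, the genes whose log2 CPM followed TIS11 most closely were ARN2, ARN1 and FIT2, a siderophore-retaining wall protein gene (Pearson r of 0.99, 0.99 and 0.98). For HMX1 they were ARN1, TIS11 and MDM36 (r = 0.98 for each), and for LSO1 they were YOX1, SKS1 and COX11 (0.94, 0.93 and 0.91). LSO1 itself had r of 0.77 with HMX1 and 0.74 with TIS11. These values describe 24 libraries that fall into 6 groups and share the step between media.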

How the data were processed

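RNA was extracted from whole yeast cells with hot acid phenol, and stranded poly(A) libraries were sequenced on an Illumina NovaSeq. Per the study's methods and the labels, the authors aligned reads strand-specifically to R64-1-1 (sacCer3) with HISAT2 and counted them on 6692 open reading frames with featureCounts; versions are not given in the sources used here. The deposited raw counts were used; the DESeq2-normalised table was not used. Totals of 8570789 to 15577958 counts per library set the precision, which was lowest for LSO1. Open reading frames hold no UTRs.

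Counts were analysed in R 4.3.3 with edgeR 4.0.16 (TMM factors, filterByExpr with a minimum count of 10, robust quasi-likelihood test, Benjamini-Hochberg adjustment, threshold 0.05). Strains were compared in fits of the 12 libraries of a medium (5976 genes tested in YPD, 6022 in YPEG), and media and interactions in a fit of all 24 (6082 genes). The replicates are described by the study as 4 replicate experiments; separate cultures are not stated in the labels, so p-values measure the spread between these libraries, which fall partly into close pairs and may be technical. The members and lists were chosen with earlier results of these data known. Named genes were the 7 members, the called gene of each list with the largest change in each direction in each comparison of a mutant with WT, the 3 genes most correlated with LSO1, TIS11 and HMX1 (log2 CPM, prior count 2), control genes for medium and strain, and LSO2. Other genes of a list (AFT1, AFT2, HAP1, SDH1, SDH2, SDH4, CYT1, ACO1) were named after their values were seen. Alternatives were DESeq2 1.42.0, its size factors, testing unfiltered genes, testing genes averaging 100 or more counts, a threshold of 0.01, chromosome medians removed, a replicate block, other sets of libraries, libraries summed in pairs (added after seeing the data) and leaving out each library. The scripts were tested on simulated data. Of 6692 open reading frames, 6008 matched RefSeq R64, from which positions and sequences came.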

Additional observations from a re-analysis of the deposited data

Results flagged for a closer look

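In 3 of 42 groups of 4 libraries, 1 library stood far from the other 3 by Dixon's test (at its 95% critical value, which chance passes in about 1 of 20 groups). TIS11 was lowest in WT YPD replicate 4, at 7.39 CPM with a gap ratio of 0.921, HMX1 was lowest in H3L126H YPEG replicate 3, at 109 CPM (0.832), and CCC1 was lowest in H3L126M YPEG replicate 2, at 93.4 CPM (0.834).

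The difference from WT itself differed between YPEG and YPD in 6 cases by the interaction test. For H3L126M these were LSO1 (-3.90), TIS11 (-1.25) and HMX1 (-1.32), and for H3L126H they were CTH1 (0.99), HMX1 (-0.92) and MRS4 (0.78), each on the log2 scale; 0 of the 6 were called with libraries 1 and 2 summed and 3 and 4 summed. HMX1 is the gene found in both, and H3L126M was higher than WT for it in YPD and lower in YPEG. Neither of these differences from WT was called with libraries summed in the same way.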

How the results depend on the processing

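Among 1168 alternative values, 0 changed sign against a called result, and 15 of the 27 calls for the 7 genes held in every alternative. LSO1 and TIS11 in H3L126M against WT in YPEG were among these calls. The LSO1 call is a description, because LSO1 passed the filter only through libraries where it is high. In the fit of all 24 libraries, LSO1 was not tested among genes averaging 100 or more counts. At an adjusted p below 0.01, the genes called numbered 433 (H3L126M against WT in YPD), 1281 (H3L126M against WT in YPEG), 1259 (H3L126H against WT in YPEG), 1286 and 1535 (H3L126M against H3L126H in YPD and YPEG), and 653 and 442 (interaction of H3L126M and of H3L126H), and of the 7 genes 0 remained called in H3L126M against WT in YPD and 2, LSO1 and TIS11, in YPEG. Fitting only the libraries compared gave 530 genes and 0 of the 7 for H3L126M against WT in YPD, and 893 genes for the H3L126M interaction. In H3L126M against WT in YPD, 1 of the 7 was called without the filter, among genes averaging 100 or more counts, or with all 24 libraries. Over all settings, these among them, that comparison called 161 to 1107 genes. DESeq2 called 5 of the 7 in H3L126H against WT in YPD, adding LSO1 and TIS11. Over all settings, DESeq2 among them, that comparison called 976 to 2943 genes. Replicate numbers did not pair the samples: of 24 pairs, 5 had a correlation above 0.1 (range -0.37 to 0.29). The replicate block left 1 of the 7 called in H3L126M against WT in YPD (HMX1), beside 691 genes in all. It added TIS11 in H3L126H against WT in YPD (adjusted p = 0.0177 in edgeR), beside 2461 genes in all. Leaving out each library gave 0 to 2 of the 7 in H3L126M against WT in YPD, beside 584 to 1107 genes in all. In YPEG it gave 2 to 4 of the 7, beside 1597 to 2460 genes in all. Summing libraries 1 and 2 and libraries 3 and 4 of each group, a choice made after seeing the data that leaves 2 samples a group, gave 161 and 976 genes for H3L126M and H3L126H against WT in YPD, 922 and 702 in YPEG, 531 and 1078 for H3L126M against H3L126H in YPD and YPEG, and 84 and 34 for the interactions of H3L126M and H3L126H; of the 7 genes, 0 were called in H3L126M against WT in YPD, 2 in YPEG, 1 in H3L126M against H3L126H in YPD and 0 in either interaction. Counts of list genes called were rerun under the same alternatives, a choice made after seeing the data: leaving out each library gave 7 to 13 iron-using protein genes higher in H3L126M in YPEG (7 with only the libraries compared, 5 at an adjusted p below 0.01 and 2 with libraries summed) and 4 to 6 siderophore genes higher in H3L126H in YPD (3 with libraries summed). Depth limits mainly LSO1, with 0 to 25 reads in any library outside the H3L126H and WT libraries in YPEG.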

Other observations

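LSO2, the paralog of LSO1 and a ribosome-associated factor, was expressed far above it. LSO2 averaged 70.0 ± 4.02 CPM in H3L126M, 77.4 ± 10.4 CPM in H3L126H and 101 ± 27.2 CPM in WT in YPEG (SD, n = 4 each), and 84.5 ± 9.20, 77.9 ± 2.96 and 87.4 ± 3.81 CPM in YPD in the same order of strains. In YPEG, H3L126M was lower than WT for LSO2 by edgeR's quasi-likelihood test (log2 fold change -0.52, SE 0.16, adjusted p = 0.0201), and the WT libraries ranged over 68.4 to 124 CPM, so that the strains overlapped. YPEG over YPD in the WT was not called for LSO2 (0.21, SE 0.13, adjusted p = 0.154). Neither TGCACCC nor TTACTAA occurred in its 500 upstream bases.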
